A study of Mus musculus with 12 samples.

Results

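The 10 genes described here encode proteins of the cardiac Z-disc or sensors of mechanical stress that bind to it: Myot, Ankrd1, Csrp3, Tcap, Ldb3, Actn2, Pdlim4, Pdlim5, Des and Fhl1. They were chosen by name, with earlier results of these data known. Their probe sets are those annotated to 1 of these genes alone. The array holds 20 such probe sets among 22690, and 18 of them passed the filter on low signal, among 14932 probe sets tested for 8852 genes. All 10 genes had at least 1 tested probe set, and each is represented by its brightest one, with the others given beside it.

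Total RNA of mouse cardiac muscle was hybridised to 12 Affymetrix MOE430A arrays in 4 groups of 3 (control hearts at 8 weeks, mdx hearts at 8 weeks, control hearts at 10.5 months and mdx hearts at 10.5 months). The series title calls the controls wild type. Mdx mice carry a mutation in Dmd, the gene of dystrophin, and serve as a model of Duchenne muscular dystrophy. No treatment, strain, sex or transgene is named in the labels, which also do not say whether an array holds 1 heart, part of a heart or a pool, so the p-values measure the spread between these arrays and that spread may be technical.

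The Z-disc is the dense plate at which the actin filaments and titin molecules of neighbouring sarcomeres are anchored and cross-linked. It is a scaffold of actinin and its partners, tied to the cell membrane at the costameres, where the dystrophin complex also sits, and to the next myofibril by desmin filaments. Several of its proteins can also move to the nucleus or act in signalling when a heart muscle cell is stretched, and mutations in human CSRP3, TCAP, LDB3, ACTN2, DES and MYOT are known causes of muscle or heart muscle disease.

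Dmd was measured first, as a check of the labels. At 8 weeks control hearts read 606.6, 780.3 and 623.2 and mdx hearts 263.8, 279.2 and 159.2, and at 10.5 months the readings were 838.9, 839.4 and 795.8 against 263.6, 286.1 and 195.2. All mdx arrays were below all control arrays (log2 change -1.42 ± 0.20 (SE), adjusted p = 0.00596 by limma at 8 weeks, and -1.63 ± 0.20, adjusted p = 0.0120 at 10.5 months). The tissue was checked against 6 genes taken as markers of heart muscle, Myh6, Myl2, Myl3, Tnnt2, Tnni3 and Actc1. Their summed signal was at least 114797 units on every array. A keyword in the records names extraocular muscle, but the skeletal genes Myh1, Myh2, Myh4, Tnnt3, Tnni2, Actn3 and Mylpf did not reach the filter on low signal. Myl1, at 632 to 3955 units, was the only one of 8 measured skeletal genes that did. Among the others Myh2 read up to 189.1 and Mylpf up to 139.9 units, both on mdx replicate 1 at 8 weeks. Myh13, also listed as a marker of skeletal or extraocular muscle, is not on the array and could not be checked. Signals throughout are scaled array units (each array set to a trimmed mean of 500), and changes are on the scale of log2(signal + 32). Fold values are therefore those of signal plus 32, which are smaller than those of the signal alone in dim genes. An adjusted p below 0.05 over all 14932 tested probe sets is called a change.

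The arrays differed in how far the bright end of the scale reached, and 8 of the 10 genes lie at that end. In 4 arrays, control replicate 2 and mdx replicates 1 and 2 at 8 weeks and mdx replicate 3 at 10.5 months, the 99th percentile of deposited signal was 40770 to 53154, against 27563 to 32810 in the other 8. At 8 weeks the mdx group therefore held 2 such wide arrays and the control group 1. In brightness over the 12 arrays, the probe sets of Csrp3, Tcap, Ankrd1, Actn2, Ldb3, Des, Pdlim5 and Fhl1 stood between the 94.0 and 99.3 percentiles of all genes tested, that of Myot at 86.4 and that of Pdlim4 at 12.1. Csrp3 gave 17239 to 28882 units on the 4 wide arrays and 12779 to 16225 on the other 8, and Des gave 8082 to 14969 and 5633 to 7639. On both genes the wide arrays were all above the others whatever the genotype or age. In bulk RNA, fewer cells of a type and less RNA per cell cannot be told apart.

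At 8 weeks 1 of the 10 genes changed in mdx hearts. Pdlim4, which encodes a PDZ and LIM domain protein that binds actinin and actin stress fibres, fell 3.09-fold, and Ankrd1, the stretch-induced ankyrin repeat protein bound to titin, was higher on all mdx arrays without passing the test on its brightest probe set. Of all genes tested, 2.15% were called at 8 weeks, 1.19% higher and 0.96% lower. The changes of 8 of the 10 genes were positive and 2 negative, with a median of 0.25 against -0.01 over all genes. Ventricular and general heart muscle markers had 6 of 6 positive values (median 0.39) and fibroblast markers 6 of 6 (median 0.33), none of them called. The summed fibroblast signal of mdx arrays was 19577 to 22691, against 15008 to 17528 for control arrays, but each of the 6 genes taken singly overlapped. Dcn, the brightest of them, was highest on the wide arrays, at 15049, 11079.6 and 7293.8 for mdx against 7305.2, 10192.1 and 7562.4 for controls. The summed heart muscle signal overlapped, at 114797 to 369971 for mdx against 124630 to 247756 for controls. The part of either list in the members' values was not tested. At an unadjusted p below 0.05 there were 3 members, Ankrd1 and Pdlim5 with positive and Pdlim4 with negative values, where 17.7% of all genes reached that level. At 10.5 months 0 members changed by limma, and 0 had an unadjusted p below 0.05, where 0.0678% and 7.34% of all genes did. There 5 values were positive and 5 negative, with a median of 0.03 against -0.02 over all genes.

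**Figure D1:**
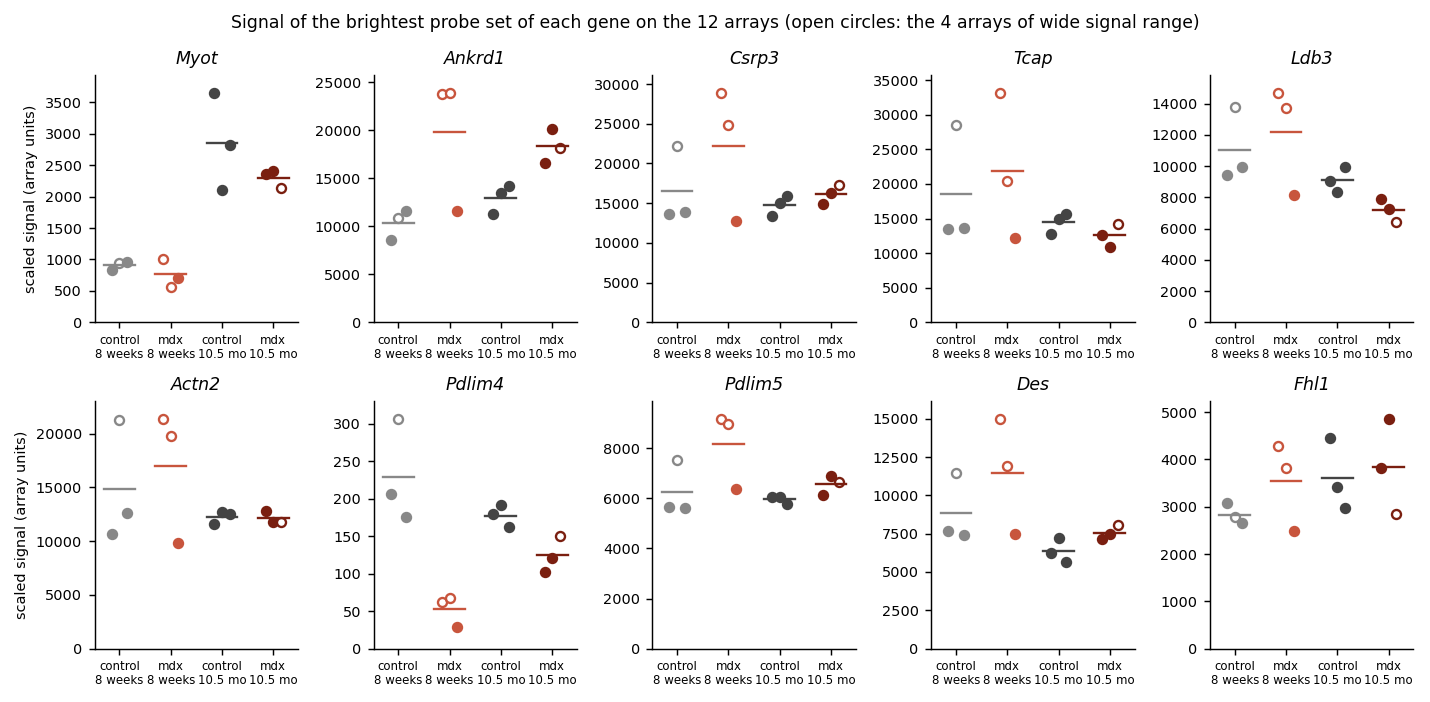
Scaled signal (vertical axes, linear array units, starting at 0) of the brightest probe set of each of the 10 genes on the 12 arrays, by genotype and age. Points are arrays, horizontal lines are means of 3, and open circles mark the 4 arrays of wide signal range. Pdlim4 at 28.2 to 67.4 in mdx hearts at 8 weeks lies below every other array, Myot is at 2108 to 3653 at 10.5 months and 563 to 1014 at 8 weeks, and Csrp3, Tcap, Actn2 and Des are highest on open circles at 8 weeks.

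The promoters of Ankrd1, whose signal was higher on mdx arrays, and of Pdlim4, whose signal was lower, are shown because these genes moved furthest apart between genotypes. Of the 10 genes 8 matched the promoter table, with 12 entries. The sequences are from RefSeq on build GRCm38.p6 and run 5′ to 3′ on the gene's strand from 250 bases before to 50 after the annotated start. Ankrd1 is shown from chr19:36119795-36120094 (minus strand) and Pdlim4 from chr11:54068968-54069267 (minus strand). Capitals mark matches to the motifs searched.
Ankrd1: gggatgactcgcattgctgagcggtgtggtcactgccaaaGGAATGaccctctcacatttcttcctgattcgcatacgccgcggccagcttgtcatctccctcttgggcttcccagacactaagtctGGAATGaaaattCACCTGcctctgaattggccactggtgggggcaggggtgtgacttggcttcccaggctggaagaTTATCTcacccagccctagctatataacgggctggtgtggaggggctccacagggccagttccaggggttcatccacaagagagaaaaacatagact
Pdlim4: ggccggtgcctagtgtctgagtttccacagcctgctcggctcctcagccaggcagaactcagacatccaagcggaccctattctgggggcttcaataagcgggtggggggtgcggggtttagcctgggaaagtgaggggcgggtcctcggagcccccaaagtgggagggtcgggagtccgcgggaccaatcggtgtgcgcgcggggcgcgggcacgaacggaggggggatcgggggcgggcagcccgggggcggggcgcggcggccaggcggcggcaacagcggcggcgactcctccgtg
The motifs were the TATA box TATAAA on the gene's strand and, on both strands, the M-CAT element CATTCC bound by TEAD factors, the E-box CANNTG, the GATA motif AGATAA, the CArG box bound by serum response factor and the MEF2 site. Ankrd1 holds 2 copies of the M-CAT letters, read on the opposite strand as GGAATG, at -210 and -123 from the start. It also holds 1 E-box at -111 and 1 GATA match at -47, read as TTATCT. None of the searched letters occurs in the window of Pdlim4, whose GC content is 71.7% against 54.7% for Ankrd1 and a median of 52.7% over all promoters. M-CAT letters are in 14.7% of the 32851 promoters of the table, the E-box in 72.3%, the GATA motif in 11.2%, TATAAA in 8.32%, the MEF2 site in 3.19% and the CArG box in 1.63%. Among the 8 members with a promoter, Ankrd1 alone held the M-CAT and GATA letters, and a CArG box was found in Ldb3 and in Fhl1.

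Ankrd1 encodes a nuclear and sarcomeric protein, also called CARP, which binds titin in the spring region near the Z-disc and is induced in stretched and overloaded heart muscle. Its brightest probe set (1420991_at) read 8520, 10835 and 11547.3 units in 8-week controls and 23810, 23889.5 and 11629.2 in 8-week mdx hearts. The older controls read 11240.5, 13492.3 and 14168 and the older mdx hearts 16585.2, 20133.9 and 18197.1. The mdx arrays were all above the controls of their age, narrowly so for mdx replicate 3 at 8 weeks, and such a separation upward was seen in 9.53% of all genes at 8 weeks and 7.93% at 10.5 months. The means were 10301 ± 1583 (SD, n = 3) and 19776 ± 7056 at 8 weeks and 12967 ± 1533 and 18305 ± 1777 at 10.5 months. Neither comparison passed for this probe set. The log2 change was 0.88 ± 0.25 at 8 weeks (adjusted p = 0.0848 by limma, 95% interval 0.34 to 1.41) and 0.50 ± 0.25 at 10.5 months (adjusted p = 0.689, -0.03 to 1.03).

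The other Ankrd1 probe set (1420992_at), annotated to the same transcript, passed at 8 weeks. The 3 controls read 7551.4, 7919.3 and 9524.5 units and the 3 mdx hearts 16973.1, 20211.5 and 11632.3. All mdx arrays were thus above all controls in this probe set too, as in 9.53% of all genes by their brightest probe sets. It rose 1.91-fold (log2 0.93 ± 0.20, adjusted p = 0.0383 by limma). The 10.5-month readings, 9843.4, 12108.5 and 12348.4 against 12210.8, 15158.4 and 16245, overlapped (0.34 ± 0.20, adjusted p = 0.740). The call at 8 weeks was kept in 10 of 25 alternatives. Leaving out any 1 control array of either age, mdx replicate 1 or 2 of the young group or mdx replicate 2 of the older group ended it (adjusted p = 0.0527 to 0.118). It was also lost with quantile-normalized signal (0.71, adjusted p = 0.0610) and with arrays of the same age only (0.93, adjusted p = 0.165). With an atrial score (the mean of the atrial markers other than Nppa) as a covariate it was lost too (0.96, adjusted p = 0.0604). It was kept with the signal range as a block. Leaving out the 4 wide arrays, an alternative chosen after seeing the data, keeps mdx replicate 3 alone in its group at 8 weeks. The change was then 0.45, and that of the brightest probe set was 0.23. Without mdx replicate 3, the 8-week mdx array of ordinary range, the brightest probe set passed too, at 1.22 (adjusted p = 0.0115).

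Averaged over both ages, the brightest Ankrd1 probe set was at 0.69 ± 0.17 (adjusted p = 0.121 by limma), and the effect at 10.5 months minus that at 8 weeks did not pass (-0.38 ± 0.35, adjusted p = 0.708, 95% interval -1.13 to 0.37). Order by level put control at 8 weeks lowest, then control at 10.5 months, mdx at 10.5 months and mdx at 8 weeks. The 2 control groups overlapped in signal, as did the 2 mdx groups. Set against the mean log2 signal of 4 other bright Z-disc genes on the same array, Csrp3, Tcap, Actn2 and Des, Ankrd1 stood at -0.38, -0.87 and 0.00 on the 8-week control arrays and at 0.02, 0.36 and 0.17 on the 8-week mdx arrays. The same difference was 0.10, 0.17 and 0.30 on the older control arrays and 0.53, 0.85 and 0.56 on the older mdx arrays. At both ages every mdx array lay above every control of its age on this within-array measure. At 8 weeks this was narrow, at 0.0175 for the lowest mdx array against 0.0027 for the highest control. The older controls lay within the range of the young mdx arrays. The measure was computed after seeing the data, and its zero has no meaning across probe sets. The share of all genes separated on it was not computed. On the same measure Pdlim5 overlapped between genotypes at both ages. Ldb3 overlapped at 8 weeks and had all mdx arrays below all controls at 10.5 months, narrowly so (-0.5307 against -0.5235 for the nearest arrays). Of 7 measured atrial markers 6 had positive changes at 8 weeks, as Ankrd1 had, and none was called. Their summed signal was 5375 to 7489 in controls and 12891 to 13869 in mdx hearts, most of it Nppa. Mdx replicate 3, the lowest 8-week mdx array in Ankrd1, was the highest of its group in Nppa and Bmp10. It was the lowest of its group in Myl7, Myl4, Sln and Stard10. At 10.5 months, by contrast, 6 of the 7 had negative values (median -0.88, 5 of the 7 at an unadjusted p below 0.05 and none called), with Myl7 at -2.08, Sln at -2.85 and Nppa at 0.76. The high Myl7 and Sln values were those of control replicates 1 and 2. Myl7 read 3553.8, 2215.7 and 130.5 on control arrays and 269.8, 150.8 and 284.2 on mdx arrays. Sln read 2242.4, 1220 and 9.1 against 25.5, 11.8 and 91.6. Control replicate 3 was thus below every older mdx array in both. The sum of the 7 at 10.5 months, again mostly Nppa, was 6086 to 24736 in controls and 12718 to 19346 in mdx hearts. With the atrial score as a covariate the change of Ankrd1 was 0.92 at 8 weeks (adjusted p = 0.111) and 0.40 at 10.5 months (adjusted p = 0.838).

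Csrp3 encodes muscle LIM protein, which binds actinin and telethonin at the Z-disc and also enters the nucleus. The young controls read 13584, 22141.5 and 13894.4 units and the young mdx hearts 28881.9, 24835.4 and 12779.3. Older hearts read 13339.3, 15002.8 and 15864.7 against 14855.1, 16224.9 and 17239.4. The groups overlapped at both ages, and the mdx array of ordinary range at 8 weeks was below all controls. Csrp3 did not pass at 8 weeks (0.38 ± 0.27, adjusted p = 0.499 by limma) or at 10.5 months (0.13 ± 0.27, adjusted p = 0.938). The 95% intervals, -0.20 to 0.96 and -0.45 to 0.71, leave room for changes of either sign.

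Tcap encodes telethonin, which caps the ends of titin in the Z-disc. At 8 weeks the control arrays read 13510.9, 28470.2 and 13580.8 units and the mdx arrays 33174.8, 20431.5 and 12219.9. The older controls read 12759.4, 14958.1 and 15682.6 and the older mdx hearts 12652, 10950.9 and 14181.9. The spread within each 8-week group was larger than the difference between them (0.22 ± 0.33, adjusted p = 0.773 by limma at 8 weeks, and -0.20 ± 0.33, adjusted p = 0.920 at 10.5 months). Of the 10 genes Tcap had the widest standard error.

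Actn2 encodes alpha-actinin 2, the cross-linker of actin filaments that forms the core of the Z-disc. Signals of the 8-week controls were 10683.7, 21238.9 and 12633.1 and those of the mdx hearts 21338, 19738.4 and 9848.9, where again the 3 high values are the 3 wide arrays. At 10.5 months all arrays lay close together, with 11550.3, 12721.5 and 12550.5 for control arrays and 12782.4, 11745.6 and 11789.9 for mdx arrays. The changes were 0.18 ± 0.28 (adjusted p = 0.786 by limma) and -0.02 ± 0.28 (adjusted p = 0.989), the latter with a 95% interval of -0.63 to 0.59.

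Ldb3 encodes ZASP, also called Cypher, a PDZ-LIM protein that holds actinin to the Z-disc. Its brightest probe set (1416752_at) read 9413.9, 13778.7 and 9920.4 units for the young controls and 14683.5, 13700.1 and 8153.2 for the young mdx hearts. For the older controls it read 9015.5, 8332.9 and 9920.1, and for the older mdx hearts 7910.8, 7273.6 and 6410.2. At the older age all mdx arrays were below all controls, as in 10.8% of all genes, and the change did not pass (-0.34 ± 0.22, adjusted p = 0.770 by limma, against 0.12 ± 0.22, adjusted p = 0.826 at 8 weeks). The other 2 probe sets of Ldb3 gave -0.29 ± 0.14 (adjusted p = 0.685) and -0.31 ± 0.17 (adjusted p = 0.702) at 10.5 months and -0.11 each at 8 weeks. All 3 probe sets thus had negative values of like size at 10.5 months, none of them called.

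Among the brightest probe sets of the 10 genes, that of Pdlim4 gave the only called difference between genotypes. Its single probe set (1417928_at) read 205.8, 306.2 and 175 units on the 8-week control arrays and 62.8, 67.4 and 28.2 on the 8-week mdx arrays. The highest mdx value was under the lowest control value, as in 10.5% of all genes, and the means were 229 ± 68.6 and 52.8 ± 21.4 (SD, n = 3). Pdlim4 fell by 1.63 on the log2 scale, with a standard error of 0.22 (adjusted p = 0.00596 by limma, 95% interval -2.11 to -1.14). Its fitted signal plus offset was thus 3.09-fold lower, and it ranked 14 among all probe sets by p-value. As the mdx signal is close to the offset of 32, the size depends on it: the change was -1.85 with an offset of 16 and -1.32 with an offset of 64, and it was called with each. Without the 4 wide arrays, where mdx replicate 3 alone is left in its group, it was -1.88. Fitting the 8-week arrays alone gave the same change with an adjusted p of 0.0663.

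In older hearts Pdlim4 read 179.5, 191 and 162.2 units for controls and 102.7, 121.4 and 150.8 for mdx. The mdx arrays were again all below the controls, as in 10.8% of genes, but by less, and the change was not called (-0.43 ± 0.22, adjusted p = 0.701 by limma). Averaged over both ages Pdlim4 fell by 1.03 ± 0.16 (adjusted p = 0.0187), in a comparison in which 0.169% of genes were called and 0.113% were called lower. That call was lost without control replicate 1 or 2 at 10.5 months (adjusted p = 0.0718 and 0.0686), without both (-0.97, adjusted p = 0.235) and without mdx replicate 1 of that age (-0.97, adjusted p = 0.0503). The difference between the effects at the 2 ages was 1.20 ± 0.32 (adjusted p = 0.162), in a comparison that called 0.158% of genes and 0 of the 10 (1 at an unadjusted p below 0.05, Pdlim4 itself, where 12% of all genes were). With the signal range as a block that difference passed, at 1.20 (adjusted p = 0.0401). Without the 4 wide arrays, where mdx replicate 3 alone is left in its group at 8 weeks, it was 1.34. Ordered by level, mdx hearts at 8 weeks were lowest and overlapped no other group, mdx hearts at 10.5 months came next, below both control groups, and the 2 control groups overlapped.

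Of 5 tested smooth muscle markers 2 were called lower in the same 8-week mdx hearts, where 0.96% of all genes were. These were Acta2 at -0.80 and Smtn at -0.69. Myocd was at -0.19, Tagln at 0.08 and Myh11 at 0.42, none of them called (median -0.19), and the summed signal of the 6 measured was 5790 to 6859 on mdx arrays against 9175 to 10157 on control arrays. Most of that sum is Acta2, with means of 3876 on mdx and 6775 on control arrays. At 10.5 months the sum was 6401 to 7413 on mdx arrays against 5336 to 5744 on control arrays, with Acta2 at 4706 and 3007, while 3 of the 5 markers had negative values (Myh11 -0.67, Smtn -0.40 and Myocd -0.15, median -0.15, none called), and Cnn1, which is restricted to smooth muscle, was under the filter. Their part in the result for Pdlim4 was not tested. With the atrial score as a covariate Pdlim4 was at -1.66 at 8 weeks (adjusted p = 0.0122).

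Pdlim5 encodes ENH, another PDZ-LIM protein of the Z-disc, which brings protein kinase C to actinin. Its brightest probe set (1429783_at) read 5664.2, 7517.2 and 5603.5 units in the young control group and 9168.2, 8989.1 and 6393.7 in the young mdx group, which overlap. The older control group read 6056.6, 6042.3 and 5775.5 and the older mdx group 6118.2, 6907.3 and 6651.9, all mdx arrays above all controls (7.93% of all genes). Neither difference passed (0.38 ± 0.17, adjusted p = 0.270 by limma, and 0.14 ± 0.17, adjusted p = 0.888). Pdlim5 has 7 probe sets, of which 2 were under the filter on low signal. The 4 other tested ones ranged from -0.35 to 0.20 at 8 weeks, 3 of them negative against the brightest, and from -0.14 to 0.30 at 10.5 months, and none was called. Probe sets of Pdlim5 therefore disagreed in sign at 8 weeks.

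Des encodes desmin, the intermediate filament that links neighbouring Z-discs to each other and to the membrane. Its brightest probe set (1426731_at) read 7639.4, 11425.3 and 7400.3 units in young control hearts and 14968.6, 11883.7 and 7453.6 in young mdx hearts. The older readings were 6231.5, 7239.7 and 5633.3 against 7132.5, 7458.9 and 8081.6. The groups overlapped at both ages (0.34 ± 0.24, adjusted p = 0.482 by limma, and 0.25 ± 0.24, adjusted p = 0.853). The other probe set (1426732_at), which is annotated to the same transcript and is dim, read 166.4, 160.9 and 117.5 in young control hearts and 293.9, 306.3 and 325.6 in young mdx hearts. It rose 1.90-fold there (0.93 ± 0.19, adjusted p = 0.0292). The groups did not overlap, and such a separation upward was seen in 9.53% of all genes by their brightest probe sets. The call was kept in 17 of 25 alternatives. It was lost without control replicate 1 or 3 or mdx replicate 2 or 3 at 8 weeks (0.80 to 1.00, adjusted p = 0.0548 to 0.113). Fits with arrays of the same age only (adjusted p = 0.107), with array weights (0.0588) and with the replicate number as a block (0.0546) also lost it. So did leaving out the 4 wide arrays (change 1.05), where mdx replicate 3 alone is left in its group. In older hearts it read 130.1, 197 and 207.3 against 260.4, 213.8 and 175.9, which overlap (0.25 ± 0.19, adjusted p = 0.807). Of the 18 tested probe sets of the 10 genes, 3 were thus called at 8 weeks, where 2.3% of all probe sets were, and 0 at 10.5 months, where 0.0469% were.

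Fhl1 encodes a four-and-a-half LIM domain protein that binds titin near the Z-disc and takes part in the response to pressure overload. Young controls read 3077.6, 2774.4 and 2651.2 units and young mdx hearts 4293.6, 3821.4 and 2489.2. Older controls read 4458.3, 3407.3 and 2981.5 and older mdx hearts 3819.9, 4852.6 and 2855. The mdx groups held both the highest and the lowest array at each age. Fhl1 did not pass at 8 weeks (0.28 ± 0.24, adjusted p = 0.575 by limma) or at 10.5 months (0.07 ± 0.24, adjusted p = 0.960).

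**Figure D2:**
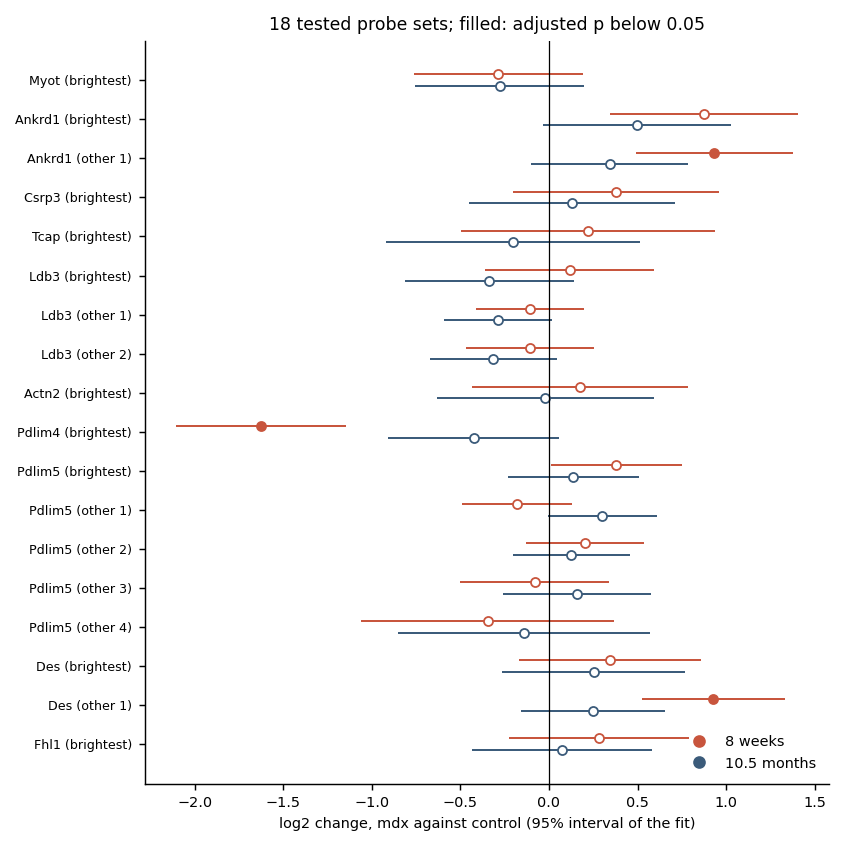
Log2 change of mdx against control hearts (horizontal axis) for the 18 tested probe sets of the 10 genes, at 8 weeks and 10.5 months. Points are estimates from limma, lines their 95% intervals, and filled points have an adjusted p below 0.05. At 8 weeks Pdlim4 is filled at -1.63, and the dimmer probe sets of Ankrd1 and Des are filled at 0.93 and 0.93, while no point is filled at 10.5 months.

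The positive median of the members at 8 weeks depended on how the bright end was scaled. After quantile normalization the median over the 10 genes was -0.01 at 8 weeks (5 positive) and -0.19 at 10.5 months (3 positive). With the signal range as a block it was 0.08 (5 positive) and -0.15 (4 positive), while the median over all genes moved by less than 0.03. Tcap, Ldb3 and Actn2 had negative values at 8 weeks under both settings (-0.07, -0.12 and -0.09 after quantile normalization). Csrp3, which had 0.38, was at 0.05 after quantile normalization and at -0.10 without the wide arrays. The fit without the wide arrays keeps mdx replicate 3 alone in its group at 8 weeks. The value of Ankrd1 was lower under these settings and kept its sign, at 0.58 and 0.75 at 8 weeks and 0.28 and 0.37 at 10.5 months. Pdlim4 was further from 0 than in the scaled signal at 8 weeks, at -1.74 and -1.81.

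**Figure D3:**
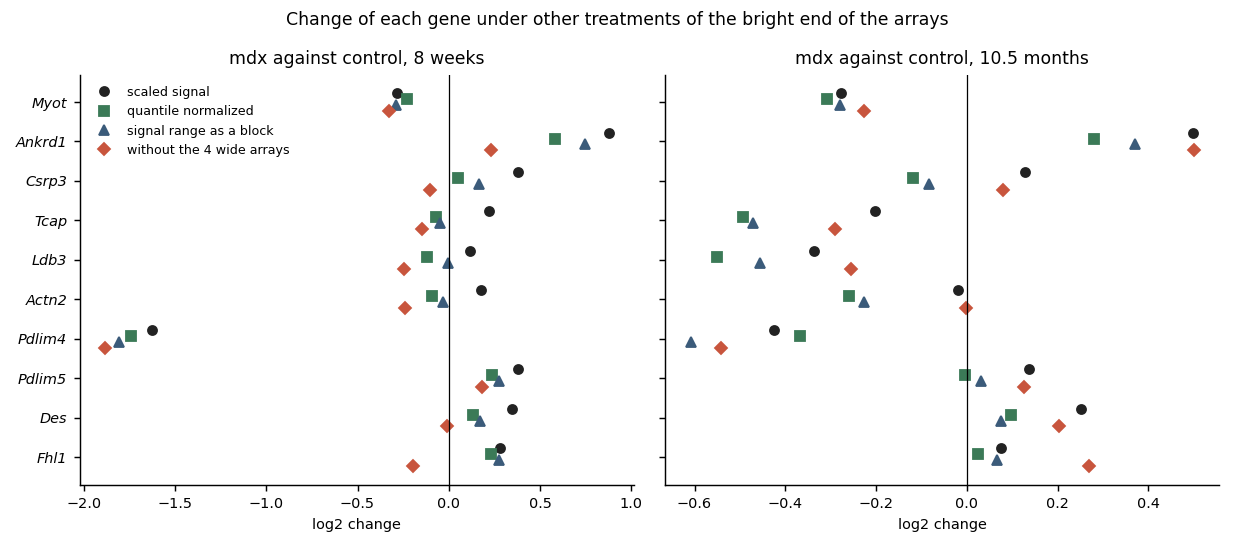
Log2 change of mdx against control (horizontal axes) of each gene at 8 weeks (left) and 10.5 months (right), with the scaled signal, after quantile normalization, with the signal range as a block and without the 4 wide arrays. At 8 weeks Pdlim4 stays between -1.63 and -1.88, Ankrd1 ranges from 0.23 to 0.88, and Tcap, Ldb3 and Actn2 cross 0, as do Csrp3, Des and Fhl1 without the wide arrays.

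With age, Myot was the member that moved most. Myot encodes myotilin, an immunoglobulin domain protein that binds actinin and filamin and bundles actin at the Z-disc. Control hearts read 830.7, 943 and 956.5 units when young and 3652.5, 2107.6 and 2817 when older. The mdx hearts read 1013.5, 563.4 and 704.3 when young and 2356.2, 2405.3 and 2131.7 when older. The lowest array at 10.5 months was above the highest at 8 weeks in both genotypes, as in 12.3% of all genes in controls and 15.5% in mdx hearts. The means were 910 ± 69.1 and 2859 ± 773 (SD, n = 3) in controls and 760 ± 230 and 2298 ± 146 in mdx hearts. Myot rose 3.00-fold in controls (log2 1.59 ± 0.22, adjusted p = 0.00978 by limma), where 0.158% of all genes were called and 0.102% were called higher, and 3.02-fold in mdx hearts (1.59 ± 0.22, adjusted p = 0.00189), where 11.3% were called and 5.68% were called higher.

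The rise of Myot with age was of like size in both genotypes, and the difference between them was 0.01 ± 0.31 (95% interval -0.67 to 0.68). Between genotypes Myot did not pass at 8 weeks (-0.29 ± 0.22, adjusted p = 0.537 by limma) or at 10.5 months (-0.28 ± 0.22, adjusted p = 0.819), and the arrays overlapped. In controls the call with age was lost without replicate 1 at 8 weeks (1.52, adjusted p = 0.0672), without replicate 1 at 10.5 months (1.39, adjusted p = 0.0505) and without the 4 wide arrays (1.61, adjusted p = 0.0570). It was also lost without control replicates 1 and 2 at 10.5 months (1.60, adjusted p = 0.229), which carried the most atrial signal and whose omission leaves 1 control array at that age. Myl1 is expressed in fast skeletal muscle and in atria. It read 1117 to 1372 units in young controls against 2120 to 2967 in older ones. Such a separation upward was seen in 12.3% of all genes. In mdx hearts the ages overlapped, at 632 to 3643 against 3241 to 3955. Neither change of Myl1 with age was called. Myl1 was the only measured skeletal gene above the filter on low signal. Its part in the result for Myot was not tested. The labels name no processing date, so age and a batch of hybridisation cannot be told apart.

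The other 9 genes gave 1 more call with age. Pdlim4 rose from 8 weeks to 10.5 months in mdx hearts (0.91 ± 0.22, adjusted p = 0.0220 by limma). In controls it did not pass (-0.29 ± 0.22, adjusted p = 0.647). The mdx comparison shares the 8-week mdx arrays with the genotype difference. Its older arrays were all above its younger ones, as in 15.5% of all genes. This call was lost without mdx replicate 3 at 8 weeks (0.68, adjusted p = 0.0514) and without mdx replicate 2 or 3 at 10.5 months (0.92 and 0.80, adjusted p = 0.0659 and 0.0794). Ldb3 came near in mdx hearts (-0.72 ± 0.22, adjusted p = 0.0530), with all older arrays below all younger ones (15.6% of all genes). But it was at -0.10 without the 4 wide arrays, where mdx replicate 3 alone is left in its group at 8 weeks. Des was at -0.45 ± 0.24 in controls (adjusted p = 0.483), all older arrays below all younger ones (11.3% of all genes), and at -0.54 ± 0.24 in mdx hearts (adjusted p = 0.148). Of the 10 genes 1 was called higher and 0 lower with age in controls, and 2 higher and 0 lower in mdx hearts. The medians were -0.17 in controls and -0.34 in mdx hearts, against 0.01 and -0.01 over all genes.

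**Figure D4:**
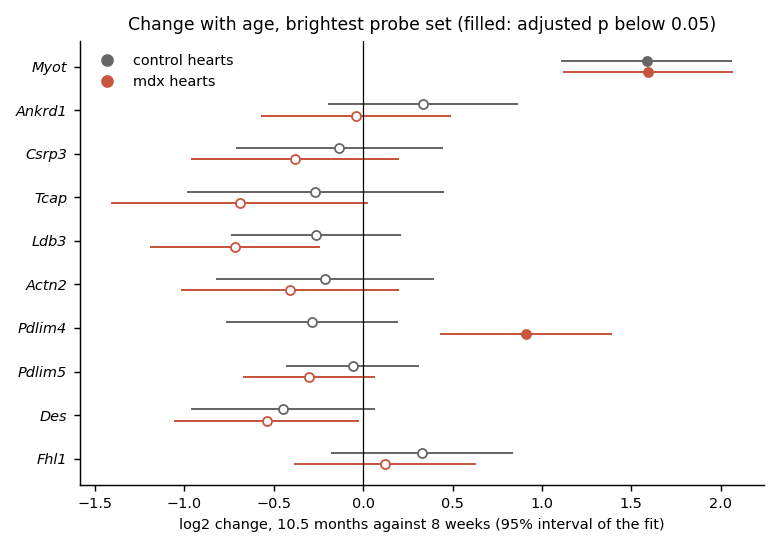
Log2 change from 8 weeks to 10.5 months (horizontal axis) of the brightest probe set of each gene in control and mdx hearts. Points are estimates from limma, lines their 95% intervals, and filled points have an adjusted p below 0.05. Myot is filled at 1.59 in both genotypes and Pdlim4 at 0.91 in mdx hearts.

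Relatives and partners of the 10 genes were drawn from 6 lists, of which 38 genes were tested. In mdx hearts 1 was called higher and 1 lower at 8 weeks, where 2.15% of all genes were called. At 10.5 months 1 was called higher and 0 lower, where 0.0678% of all genes were called. The median change of the 38 genes was -0.04 at 8 weeks and 0.10 at 10.5 months. All of these calls were in the list of stretch-responsive genes, of which 8 of 8 were tested (median 0.35 at 8 weeks and 0.45 at 10.5 months). Ccn2, a matrix protein induced by stretch, read 1002.6, 668.4 and 1024.3 units in young controls and 1362.6, 1930.8 and 1540.5 in young mdx hearts. The older readings were 1199.2, 1003.6 and 1003.4 against 2846.5, 2854.8 and 2780.4. Every mdx array was above every control of its age, as in 9.53% of all genes at 8 weeks and 7.93% at 10.5 months. Ccn2 rose by 0.83 ± 0.18 (adjusted p = 0.0392 by limma) and by 1.38 ± 0.18 (adjusted p = 0.0121). The 8-week call was kept in 10 of 26 alternatives and the older one in 18 of 26. The former was lost without any 1 of the 12 arrays other than mdx replicate 1 at 8 weeks and mdx replicate 3 at 10.5 months (adjusted p = 0.0533 to 0.0856). Without the 4 wide arrays, where mdx replicate 3 alone is left in its group at 8 weeks, the 8-week change was 0.59. The older call was lost without any 1 of the 10.5-month controls or mdx replicate 2 or 3 (adjusted p = 0.0550 to 0.0997). Without both controls high in atrial markers, which leaves 1 control array at that age, the older change was 1.47. With the atrial score as a covariate neither change passed (adjusted p = 0.0732 and 0.0598). The 8-week call was also lost with arrays of the same age only (adjusted p = 0.184) and with array weights (0.0606). Acta1, the skeletal actin gene of the fetal programme, read 3529.1, 6774 and 7566.4 in young controls and 2537, 2417.6 and 2387.8 in young mdx hearts, and fell by 1.20 ± 0.23 (adjusted p = 0.0251). This call was kept in 20 of 26 alternatives, and was lost without control replicate 2 or 3 at 8 weeks (-1.07 and -0.99, adjusted p = 0.0533 and 0.0924). Fits with arrays of the same age only (adjusted p = 0.154) and with array weights (0.0673) also lost it. So did leaving out the 4 wide arrays (change -1.10), where mdx replicate 3 alone is left in its group at 8 weeks. At 10.5 months Acta1 was at -0.06 ± 0.23 (adjusted p = 0.968).

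In the other 5 lists 0 genes were called between genotypes. The Z-disc scaffold list had 14 of 21 genes tested (median -0.03 at 8 weeks and 0.02 at 10.5 months, 2 and 0 at an unadjusted p below 0.05). Its lowest p was that of Ttn, the giant spring protein titin, which read 12883.2, 19900.5 and 15611.3 units in young controls and 40628.8, 32471.5 and 14743.8 in young mdx hearts (0.76 ± 0.30, adjusted p = 0.207 by limma). The 3 highest of these arrays were the 3 wide ones. The PDZ-LIM and LIM-only relatives had 8 of 9 tested (median -0.14 and 0.20), with Csrp1, a LIM protein of smooth muscle, lowest in p at -0.56 ± 0.20 (8 weeks, adjusted p = 0.173). Of the ankyrin repeat and Xin relatives 3 of 6 were tested, and Xirp1, an actin-binding protein of the intercalated disc, was at -0.35 ± 0.18 (8 weeks, adjusted p = 0.328). Plec, which encodes the linker plectin, was at -0.63 ± 0.20 at 10.5 months (adjusted p = 0.576), and Fbxo32, the ubiquitin ligase atrogin-1, was at -0.39 ± 0.18 at 8 weeks (adjusted p = 0.273).

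With age in mdx hearts 9 of these 38 genes were called, 6 higher and 3 lower, where 11.3% of all genes were. In controls 0 were called, where 0.158% of all genes were. Acta1 rose by 1.82 ± 0.23 (adjusted p = 0.00108 by limma), Pdlim2, an actinin-binding relative of Pdlim4, by 0.87 ± 0.20 (adjusted p = 0.0159) and Nppb, which encodes brain natriuretic peptide, by 0.73 ± 0.18 (adjusted p = 0.0231). Ccn2, Rcan1 and Trim54 also rose. Plec fell by 0.97 ± 0.20 (adjusted p = 0.0126), and so did Bag3, a co-chaperone of the Z-disc (-0.76 ± 0.22, adjusted p = 0.0424), and Palld, a partner of actinin and myotilin (-0.67 ± 0.17, adjusted p = 0.0258). In controls Palld was at -0.69 and Nppb at 0.61, of like size to mdx hearts. There Acta1 was at 0.68, Trim54 at 0.33, Pdlim2 at 0.32, Ccn2 at 0.26, Rcan1 at 0.05, Plec at -0.09 and Bag3 at -0.16. The difference between the genotypes in the change with age was called for 0 of the 38 genes.

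The genes whose log2 signal was most like that of 4 members over the 12 arrays were found among 8851 others, and the values are a description in which all points share arrays and scaling. Ankrd1 was closest to Ptgds (r = 0.92), Mgp (0.88) and Rps10 (0.85). Pdlim4 was closest to Med27 (0.92), Erdr1 (0.91) and Asb10 (0.90), of which Med27 was at 169 to 203 in mdx hearts at 8 weeks and at 266 to 356 on the other arrays. Csrp3 was closest to the mitochondrial genes Ndufa4 (0.99), Atp5g3 (0.99) and Slc25a4 (0.98), which were highest on the wide arrays of 8 weeks. Myot was closest to Zfp148 (0.95), Atg16l1 (0.95) and Bcap29 (0.94).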

How the data were processed

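Total RNA of mouse cardiac muscle was profiled on 12 Affymetrix MOE430A arrays, 3 per group. The values deposited by the authors are intensity on a linear scale, 1 per probe set and array, already scaled to a common target (trimmed mean 1500.6 to 1500.9 on every array). The labels give only Affymetrix's standard protocol. The summary software, its version and detection calls are not given in the sources used here. Groups and replicate numbers came from the sample titles.

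Arrays were set to a trimmed mean of 500 (2% left off at each end), and log2(signal + 32) was analysed, which understates changes of dim genes. Array precision is limited by 3 arrays per group. After 64 control probe sets and those with a mean scaled signal under 100 were left out, 14932 probe sets remained. Symbols came from the platform annotation (20393 probe sets with 1 gene, 691 with several, 1606 with none), of which 20364 were matched to current gene tables. In R 4.3.3, limma 3.58.1 (lmFit and eBayes) fitted 1 mean for each group over the 12 arrays, with 8 residual and 5.2 prior degrees of freedom. It gave mdx against control at each age, the mean and difference of these, and age within each genotype. P-values are Benjamini-Hochberg adjusted over the tested probe sets, and errors of changes are standard errors. The script was tested on simulated data.

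The members and lists were chosen with earlier results of these data known. All 10 genes are named, with up to 4 called genes per related list in a mdx comparison, or otherwise the gene with the smallest p, and the 3 genes most like Ankrd1, Pdlim4, Csrp3 and Myot. Genes called with age were named after their values were seen. Replicate numbers were checked for pairing: deviations of same-numbered arrays correlated at -0.13 to 0.14 at 8 weeks and -0.09 to 0.02 at 10.5 months, so the numbers were not used. Alternatives were other scalings, offsets and filters, array weights, the replicate number, the signal range or the atrial score in the fit, arrays of 1 age, gene means and each array left out. Leaving out the 4 wide arrays, or 2 control arrays high in atrial markers, was added after seeing the data.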

Additional observations from a re-analysis of the deposited data

How the results depend on the processing

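The 26 alternatives gave 973 values for the 38 results on named genes, of which 870 kept their direction and side of the threshold, 65 were no longer called, 13 became called and 25 changed sign. Pdlim4 at 8 weeks was called in 24 of 25 alternatives that tested it, Myot with age in mdx hearts in 25 of 25 and in controls in 21 of 25, Pdlim4 with age in mdx hearts in 21 of 24 and for the mean over both ages in 20 of 24. The dimmer probe sets at 8 weeks were called in 10 of 25 (Ankrd1) and 17 of 25 (Des), Ccn2 in 10 of 26 at 8 weeks and 18 of 26 at 10.5 months, and Acta1 in 20 of 26. The count of members called at 8 weeks (1) was 0 with a filter at a mean of 200, which leaves Pdlim4 untested, and 0 with arrays of the same age only, and 1 to 2 with single arrays left out. For the mean over both ages (1) it was 0 with that filter, 2 with array weights, 0 without both control arrays high in atrial markers, and 0 to 2 with single arrays left out. For the difference between ages (0) it was 1 with the signal range as a block and 1 without the 4 wide arrays, with 0 to 0 for single arrays. For age in controls (1) it was 0 without the 4 wide arrays and 0 without both control arrays high in atrial markers, and 0 to 1 for single arrays. For age in mdx hearts (2) it was 1 to 5. At 10.5 months it was 0 in all 26.

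The changes of sign were in genes that were not called. Without the 4 wide arrays the 8-week changes were -0.10 for Csrp3, -0.15 for Tcap, -0.24 for Ldb3, -0.24 for Actn2, -0.0125 for Des and -0.20 for Fhl1. That fit keeps mdx replicate 3 alone in its group at 8 weeks. After quantile normalization the 8-week changes were -0.0719 for Tcap, -0.12 for Ldb3 and -0.0899 for Actn2, and those at 10.5 months -0.12 for Csrp3 and -0.0045 for Pdlim5. With the signal range as a block they were -0.0484 for Tcap, -0.0019 for Ldb3 and -0.0304 for Actn2, and -0.0824 for Csrp3 at 10.5 months. With each gene's probe sets averaged Ldb3 was at -0.033 and Pdlim5 at -0.0052 at 8 weeks. With single arrays left out the ranges were -0.13 to 0.58 for Tcap, -0.0412 to 0.38 for Ldb3 and -0.0277 to 0.53 for Actn2 at 8 weeks, and -0.0627 to 0.0067 for Actn2 and -0.11 to 0.27 for Fhl1 at 10.5 months. The cause was not tested.

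With the replicate number as a block the count of members called at 8 weeks was 1, as without it, but the dimmer probe sets of Ankrd1 (adjusted p = 0.0595 by limma) and Des (0.0546) and Ccn2 (0.068 and 0.0659) were no longer called. Over all probe sets 343 were called at 8 weeks (23 to 454 over the alternatives), 7 at 10.5 months (0 to 110), 30 for the mean (8 to 127), 23 for the difference (0 to 141), 22 with age in controls (0 to 270) and 1706 with age in mdx hearts (598 to 1962). Signal near the offset limits the size of the fall of Pdlim4, and 3 arrays per group limit all comparisons.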
